A study of Mus musculus with 10 samples.

Results

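The genes described here encode proteins stored in the granules of neutrophils, measured in murine Mll-AF9 leukaemia cells with and without depletion of Meis1. The set holds 10 genes, taken for what their products are, with no measured value in the rule: Mpo, Elane, Prtn3, Ctsg, Fcnb, Ltf, Camp, Ngp, Mmp8 and Chil3. Every probe set whose single platform gene symbol was one of these names was taken, which gave 10 probe sets, 1 for each gene, of 45037 in the table. The table covers 18193 genes with a symbol of their own.

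The cells, line 4166, carry the fusion of Mll with AF9. The controls (n = 5) received an empty lentiviral vector and the other cells (n = 5) a lentivirus with an shRNA against Meis1, so that the control virus carried no hairpin. The culture medium was IMDM with 2 ng/ml interleukin 3 and 15% serum for all. Cells were selected with puromycin and profiled 48 h after transduction on Affymetrix mouse arrays. Control 1 was paired with shRNA 1 and so on through pair 5, by the numbers in the labels, which do not state a pairing. The labels name 1 cell line and no separate cultures, so the spread between samples may be in part technical.

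Neutrophil granules form in waves as the cell matures. Azurophil granules appear at the promyelocyte stage and hold myeloperoxidase (Mpo) and the serine proteases neutrophil elastase (Elane), proteinase 3 (Prtn3) and cathepsin G (Ctsg), which are bound to the proteoglycan serglycin and trimmed to their active form by cathepsin C. Specific granules are filled later, at the myelocyte and metamyelocyte stages, with lactoferrin (Ltf), the cathelicidin Camp and neutrophilic granule protein (Ngp), and neutrophil collagenase (Mmp8) is stored in specific and gelatinase granules. Ficolin B (Fcnb) and the chitinase-like protein Ym1 (Chil3) are lectins of maturing granulocytes and of some macrophages. The azurophil genes are classic targets of PU.1, C/EBP alpha, Runx1 and Myb, and the specific granule genes depend on C/EBP epsilon.

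The 4 azurophil promoters are shown because these genes gave strong signals in every array and were all lowest in pairs 1 and 2, and that of Chil3 because its level differed most between pairs. All 10 genes were found by Entrez identifier in the RefSeq promoter table for GRCm38.p6. The 250 bases before each gene start are printed from 5′ to 3′ on the strand of the gene. Capitals mark the motif AGGAAGT, the purine-rich core read by PU.1 and other ETS factors, on either strand (ACTTCCT on the printed strand where the match lies on the other). The motif was chosen after these sequences had been read.
Mpo, chr11:87793534-87793783, plus strand: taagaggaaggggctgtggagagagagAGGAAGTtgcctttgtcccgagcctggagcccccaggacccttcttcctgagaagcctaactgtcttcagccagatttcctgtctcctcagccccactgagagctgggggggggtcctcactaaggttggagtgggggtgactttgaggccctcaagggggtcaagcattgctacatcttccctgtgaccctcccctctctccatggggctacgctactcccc
Elane, chr10:79886062-79886311, plus strand: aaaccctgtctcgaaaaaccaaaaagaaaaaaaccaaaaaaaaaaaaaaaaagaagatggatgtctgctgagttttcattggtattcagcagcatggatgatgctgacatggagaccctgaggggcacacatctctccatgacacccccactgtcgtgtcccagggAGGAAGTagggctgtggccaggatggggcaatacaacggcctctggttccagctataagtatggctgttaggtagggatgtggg
Prtn3, chr10:79879417-79879666, plus strand: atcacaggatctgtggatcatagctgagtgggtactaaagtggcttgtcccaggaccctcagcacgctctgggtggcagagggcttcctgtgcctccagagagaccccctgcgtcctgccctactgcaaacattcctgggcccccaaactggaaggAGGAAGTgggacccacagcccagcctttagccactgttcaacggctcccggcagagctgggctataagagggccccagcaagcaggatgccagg
Ctsg, chr14:56102575-56102824, minus strand: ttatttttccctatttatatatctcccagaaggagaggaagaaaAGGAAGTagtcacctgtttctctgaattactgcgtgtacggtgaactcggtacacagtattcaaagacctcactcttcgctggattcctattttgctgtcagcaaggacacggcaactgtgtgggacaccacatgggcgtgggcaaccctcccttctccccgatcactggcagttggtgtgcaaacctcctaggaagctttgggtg
Chil3, chr3:106167565-106167814, minus strand: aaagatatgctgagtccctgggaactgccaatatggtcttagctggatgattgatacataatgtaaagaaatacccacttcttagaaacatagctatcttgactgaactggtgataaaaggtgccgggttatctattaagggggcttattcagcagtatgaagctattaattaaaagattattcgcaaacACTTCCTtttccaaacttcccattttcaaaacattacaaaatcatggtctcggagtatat

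AGGAAGT occurred once in each of the 4 azurophil promoters, beginning at -223 in Mpo, -84 in Elane, -94 in Prtn3 and -206 in Ctsg, counted from the gene start. It was also present in Chil3, Fcnb and Mmp8, so in 7 of the 10 promoters, against 7.69% of 32851 promoter windows of the same length in the table. Because this motif was chosen after the sequences had been read, the excess describes them and is no test of enrichment. The C/EBP motif TTGCNNAA, searched on both strands, lay in 4 of the 10 promoters, against 9.56% of all windows. It was in 3 of the 4 specific and gelatinase promoters (Ltf, Ngp and Mmp8), in the lectin gene Fcnb and in 0 of the 4 azurophil ones. The Myb motif AACNG was in all 10, but 74.2% of all windows hold it. TGTGGT, a Runx motif, was in Ctsg alone of the 10 (14.0% of all windows), and TGACAG, a Meis motif, in Ctsg and Mmp8 (15.9%). No overlaps of these motifs with each other were removed. Elane and Prtn3 lie side by side on chromosome 10, with gene starts 6645 bases apart, and Ltf, Camp, Ngp and Mmp8 all lie on chromosome 9. A match of letters describes the sequence and shows no binding.

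Meis1 itself was lower in all 5 shRNA samples than in their controls, at 346 ± 56.3 with the empty vector and 165 ± 40.2 with the shRNA (mean intensity ± SD, n = 5 each; 2.13-fold lower, adjusted p = 0.000767 by limma). Of the 45037 probe sets 2.48% passed the threshold between the groups in the paired limma fit, 881 lower (1.96%) and 235 higher (0.522%; 640 and 345 after quantile normalization). The log2 ratio of 3 prime to 5 prime control signal, a measure of RNA integrity, was 0.201 to 0.373 in the controls and 0.334 to 0.389 with the shRNA, higher in 5 of 5 pairs. The myeloid label was checked on Mpo and its relatives, described next, and the 12 measured lymphoid markers summed to intensities of 60.4 to 73.9 per array. The 14 measured markers of eosinophils, basophils and mast cells summed to 379 to 741 in the controls and 311 to 429 with the shRNA, of which Mcpt8 gave most, at up to 598.

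Among the 10 genes, the 4 azurophil genes gave strong signals, and the 4 specific and gelatinase genes were at or near background. Mpo, Elane, Prtn3 and Ctsg lay between 922 and 13700 in all 10 arrays. Ltf, Camp, Ngp, Mmp8 and Fcnb lay between 3.14 and 6.43, beside the 3.28 to 4.92 of the Trpn control probe sets, which match no mouse transcript and served as background. All values are RMA intensities on a linear scale. Chil3 was at the same low level in 8 arrays and far above it in both arrays of pair 5.

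With Meis1 depleted, none of the 10 genes passed the adjusted threshold (0 of 10 by limma with a block for the pair, against 2.48% of all probe sets; 1 of 10, Elane, at an unadjusted p under 0.05, against 14.8% of all probe sets). Elane had the deepest change, 1.32-fold lower, a fall that 4.42% of all probe sets matched or passed. In bulk RNA fewer cells that express a gene and less RNA per cell cannot be told apart. Mpo, Elane and Prtn3 were lower in all 5 pairs and Ctsg in 4. Of all probe sets 8.56% were lower in all 5 pairs, and 21.3% of the 11215 with a mean log2 level above 5, so a run of 5 lower pairs was common among bright probe sets.

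Elane read 1421, 1285, 3410, 3671 and 3347 in controls 1 to 5 and 1024, 921.9, 3000, 2697 and 2465 in the paired shRNA samples. Each shRNA value was below its own control, but the groups overlapped widely, because pairs 1 and 2 were far below the others in both groups. The paired limma fit put the log2 change at -0.40 (SE 0.09, 95% interval -0.60 to -0.21, adjusted p = 0.0521), from pair differences of -0.47, -0.48, -0.18, -0.44 and -0.44. Turning the signs of the pair differences gave an exact two-sided p of 0.0625, which no set of 5 pairs can go below. Adjusted over the 18193 genes in place of all probe sets, an alternative added after seeing the data, the same test gave an adjusted p of 0.0410, and 3.68% of genes passed. The call also depended on other settings: the adjusted p ran from 0.000216 (trend and robust eBayes) to 0.895 (the ratio of 3 prime to 5 prime signal in the fit) over 15 alternatives, 6 of them under 0.05, with a change between -0.46 and -0.39 throughout. Leaving out any 1 pair gave 0.0749 to 0.193, and without the block it was 0.754.

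Mpo, the peroxidase that makes hypochlorous acid, read 9558, 9507, 11500, 10300 and 13700 in the controls and 8148, 8870, 10300, 9705 and 12200 with the shRNA. The ranges overlapped and the fall within pairs was small, at -0.15 on the log2 scale (SE 0.08, 95% interval -0.33 to 0.04, adjusted p = 0.461 by limma). Prtn3, the protease next to Elane on the chromosome, read 4730, 4902, 6134, 5826 and 7591 in the controls and 4595, 4620, 5297, 5356 and 6562 with the shRNA. Its change was -0.13 (SE 0.08, 95% interval -0.32 to 0.05, adjusted p = 0.526), with overlapping groups.

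Ctsg, a protease with chymotrypsin-like activity, read 5457, 5353, 8259, 8291 and 12900 in the controls and 4714, 5451, 7112, 6443 and 11400 with the shRNA. Pair 2 was the exception, with the shRNA sample just above its control. The change was -0.19 (SE 0.09, 95% interval -0.39 to 0.02, adjusted p = 0.385 by limma). The intervals of Mpo, Prtn3 and Ctsg reach 0 and also hold falls of 0.32 or more, so these data leave a small decrease undecided. With trend and robust eBayes Mpo and Ctsg passed beside Elane (adjusted p = 0.0104 and 0.0217), whereas Ctsg was at -0.055 once the ratio of 3 prime to 5 prime signal entered the fit. Within arrays the ratio of Elane to Mpo was lower with the shRNA in 5 of 5 pairs, by 0.26 ± 0.14 on the log2 scale (SD), and its ratios to Prtn3 and Ctsg were lower in 4 of 5 pairs each. These ratios were not tested.

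**Figure D1:**
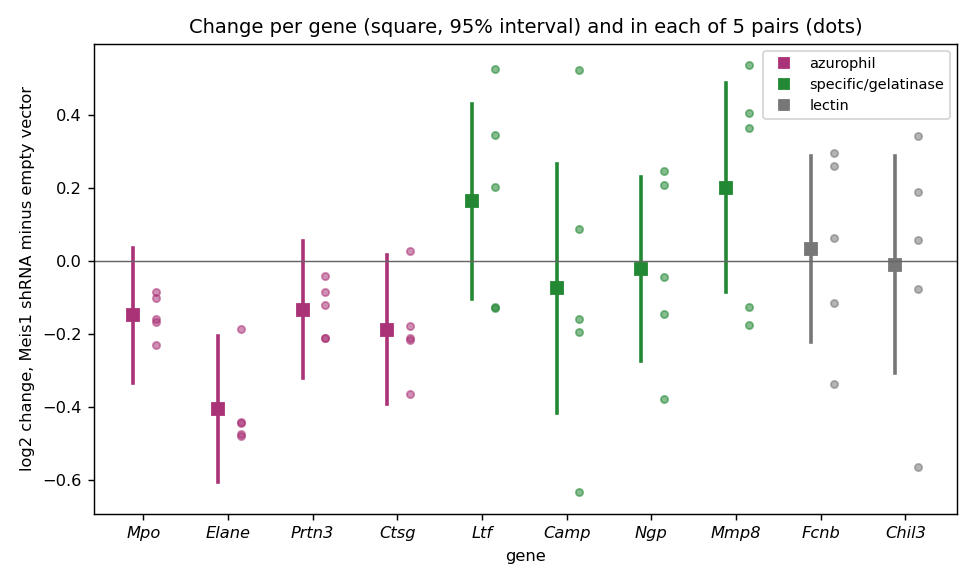
Log2 change of each granule gene, Meis1 shRNA minus empty vector (y axis), by gene (x axis). Squares with bars are limma estimates with 95% intervals, and small dots are the 5 pair differences. Elane, at -0.40, is the single gene whose interval lies below 0, and the genes at background scatter on both sides of 0.

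The 4 specific and gelatinase genes were at or near background in both groups, so these arrays leave little room to show a fall. Ngp was at or under the highest Trpn value of 4.92 in all 10 arrays, and Ltf, Camp and Mmp8 passed it in some. Ltf, which binds iron, read 4.07 to 5.40 in the controls (median 4.47) and 4.20 to 6.43 with the shRNA (median 4.95). Camp, the precursor of an antimicrobial peptide, read 3.98 to 5.81 and 3.74 to 5.72. Neither group stood apart from the other for these genes.

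The same held for Ngp, a cystatin-like granule protein (3.82 to 4.53 and 3.38 to 4.53), and for the collagenase Mmp8 (3.85 to 5.13 and 4.41 to 6.03). Fcnb, which binds acetylated sugars on microbes, read 3.23 to 3.97 and 3.14 to 4.05. Fitted log2 changes of these 5 genes lay between -0.08 (Camp) and 0.20 (Mmp8), with adjusted p from 0.537 to 0.962 by limma and intervals that all spanned 0. No fold is given for them because both groups were at or near background. A large rise in signal was not seen either: the highest upper bound of the 5 intervals was 0.49, for Mmp8. At such levels this bounds the signal and not the change in RNA.

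As classes, the 4 azurophil genes had a mean log2 change of -0.22 ± 0.04 (SD over 5 pairs), with pair values of -0.24, -0.16, -0.19, -0.25 and -0.25. The 4 specific and gelatinase genes had 0.07 ± 0.12, with pair values of 0.20, 0.03, -0.05, 0.20 and -0.04. The azurophil value was below the other in all 5 pairs, by 0.29 ± 0.15. The median change over all 18193 genes was 0.004, and 49% of them were below 0, for comparison. Once the ratio of 3 prime to 5 prime signal entered the fit, the specific and gelatinase mean was -0.065 and the difference -0.14, with the azurophil mean at -0.20. These means are descriptions with no test, and the specific and gelatinase values are all at or near background.

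The larger differences among azurophil genes were between pairs, in both groups alike. All 4 arrays of pairs 1 and 2 lay below all 6 arrays of pairs 3 to 5 for each of Mpo, Elane, Prtn3 and Ctsg. Of all probe sets 2.09% had that pattern, and 5.37% of those with a mean log2 level above 5. The division into pairs 1 and 2 against the rest was read from the values, so it is given as a description. The labels do not state it, though the titles of controls 1 and 2 misspell a word that those of controls 3 to 5 do not. Pair 5 was also the highest in both of its arrays for Mpo, Prtn3 and Ctsg, against 3.04% of all probe sets, or 4.34% of the brighter ones.

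A moderated F test of the sample number, with the group difference taken out, called 3 of the 10 genes (Chil3, Elane and Ctsg), against 0.753% of all probe sets and 2.2% of those above a log2 level of 5. Elane varied most among the azurophil genes, with pair means that spanned 2.94-fold, from 10.09 in pair 2 to 11.64 in pair 3 on the log2 scale (adjusted p = 0.00202 by limma, under the threshold in each of 13 alternatives). The pair means of Ctsg spanned 2.39-fold, from 12.31 in pair 1 to 13.57 in pair 5 (adjusted p = 0.0187 by limma). That call rested on pair 5 and pair 1, with adjusted p of 0.300 and 0.0890 without them, and was 0.105 once the ratio of 3 prime to 5 prime signal entered the fit.

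Mpo and Prtn3 spanned 1.46-fold and 1.51-fold between pair means and did not pass (adjusted p = 0.307 and 0.253 by limma). With trend and robust eBayes, with dim probe sets left out or on the log2(value + 16) scale both did. For Ltf, Camp, Ngp, Mmp8 and Fcnb the adjusted p was 0.856 to 0.981. For Elane the span from lowest to highest pair mean was 1.56 on the log2 scale, beside a mean difference of 0.40 between the groups. A span of extremes and a mean difference are unlike measures. Sample number may stand for culture, day or array batch, and which of these it marks was not tested.

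Chil3 was the gene with the widest spread. It read 2.69, 2.91, 3.50, 3.52 and 260.7 in controls 1 to 5 and 3.40, 3.32, 3.32, 3.67 and 176.4 with the shRNA. Both arrays of pair 5 were thus above the other 8, none of which passed 3.67. The sample number effect had an adjusted p of 4.53e-05 by limma and rested on pair 5, with 0.803 without it. No group difference was detected for Chil3 (log2 change -0.01, 95% interval -0.31 to 0.29, adjusted p = 0.985 by limma). The 8 arrays outside pair 5 were all under the highest Trpn value of 4.92, so they could not show one, and the interval does not bound it. Pair 5 alone had signal, and there the shRNA array was lower by 0.56 on the log2 scale. A further probe set, assigned to both Chil4 and Chil3 and so outside the 10, read 181.2 and 51.1 in the control and shRNA arrays of pair 5 and 4.33 to 7.29 in the others (adjusted p for sample number = 0.0117 by limma).

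Other myeloid genes, named after their values were seen, also had their 2 highest values in pair 5. Of 13 measured monocyte and macrophage markers 4 did (Csf1r, Cd14, Ccr2 and F13a1), against 3.04% of all probe sets. Csf1r did so by a small margin at a dim level, with 15.16 and 14.79 in pair 5 beside 14.77 in shRNA 3. Its adjusted p for sample number was 0.744 by limma. The brighter Cd68 had its lowest value, 274.5, in the shRNA array of pair 5. F13a1, a coagulation factor subunit of monocytes and platelets, read 672 and 428 in pair 5 and 36.9 to 242 elsewhere. The summed intensity of the whole monocyte list was 788 to 1876 in the controls and 922 to 1421 with the shRNA, and its C1qa, C1qc and Ms4a7 were at background in all 10 arrays. Of 7 further neutrophil genes 3 were highest in pair 5, namely S100a8, S100a9 and the G-CSF receptor Csf3r. S100a8, which encodes a subunit of calprotectin, read 8.41, 7.96, 15.2, 13.9 and 547 in the controls and 22.6, 13.6, 109, 132 and 613 with the shRNA. It was higher with the shRNA in 5 of 5 pairs, at a log2 change of 1.69 that did not pass (adjusted p = 0.0727 by limma). None of 11 erythroid and megakaryocytic markers, 1 of 12 lymphoid markers (Ms4a1) and 1 of 14 eosinophil, basophil and mast cell markers (Mcpt1) were highest in pair 5. Their part in the result for Chil3 was not tested.

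Serpinb1a and Slpi, from different lists, passed the test and are described together after their values were seen, because both encode protease inhibitors. Serpinb1a, an intracellular inhibitor of elastase, proteinase 3 and cathepsin G, fell 1.93-fold, and Slpi, a secreted inhibitor of elastase and cathepsin G, fell 1.40-fold. Serpinb1a read 669, 643, 749, 696 and 794 in the controls and 380, 358, 431, 303 and 378 with the shRNA. The groups did not overlap, and the share of all probe sets without overlap is not given here. On the log2 scale Serpinb1a changed by -0.95 (SE 0.10, adjusted p = 0.0019 by limma), and it passed whichever pair was left out and without the block (adjusted p = 0.000545). Once the ratio of 3 prime to 5 prime signal entered the fit, where 0 of all probe sets passed, it stood at -0.85 (adjusted p = 0.421 by limma).

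Slpi read 1083, 1153, 937, 1329 and 1549 in the controls and 864, 638, 769, 948 and 1105 with the shRNA, lower in all 5 pairs with overlapping groups. Its change was -0.49 (SE 0.10, adjusted p = 0.0489 by limma), and the call was lost whichever pair was left out (0.0660 to 0.176), without the block (0.190) or after quantile normalization. Ctsc, the cathepsin that activates these proteases, and Srgn, serglycin, were picked from the same lists after their values were seen. Ctsc changed by -0.14 (adjusted p = 0.563) and Srgn by -0.21 (adjusted p = 0.258, lower in 5 of 5 pairs). Ctsc ran the other way between pairs from the proteases, since all 4 of its arrays of pairs 1 and 2, at 2460 to 2770, were above the other 6, at 1619 to 2245.

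**Figure D2:**
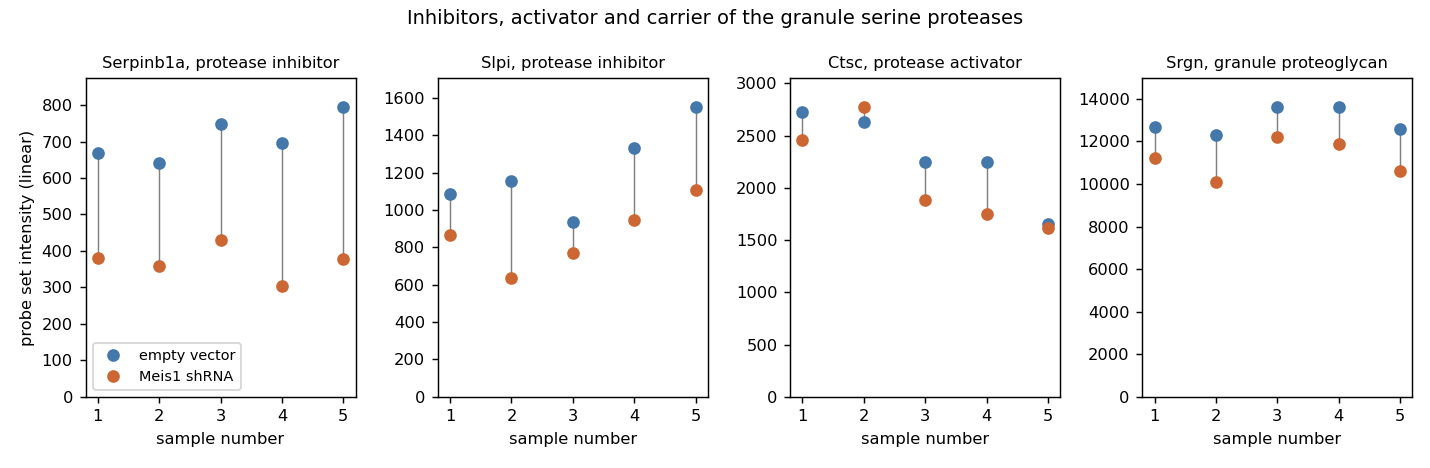
Probe set intensity on a linear axis from 0 (y) against sample number (x) for inhibitors (Serpinb1a and Slpi), the activator (Ctsc) and the carrier (Srgn) of the granule serine proteases, with empty vector in blue, Meis1 shRNA in orange and pairs joined. All 5 shRNA values of Serpinb1a (303 to 431) lie below all 5 controls (643 to 794), and Ctsc is highest in pairs 1 and 2.

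The further list of azurophil and lysosomal genes and partners of the azurophil proteases held 8 measured genes. Of these 2 rose, 1 fell (Serpinb1a, the protease inhibitor) and 5 did not pass, with a median change of -0.03. Thus 3 of 8 were called, against 2.48% of all probe sets (0.522% higher and 1.96% lower). The genes that rose were the lysozymes Lyz1 (0.66, SE 0.14, adjusted p = 0.0422) and Lyz2 (0.79, with SE 0.16 and adjusted p = 0.0423; in 4 of 5 pairs higher), near-identical copies that arrays may not separate. Lyz1 read 294, 308, 466, 444 and 1182 in the controls and 419, 508, 852, 943 and 1290 with the shRNA, so that pair 5 was again the highest. Both lysozymes lost the call when any of pairs 1 to 4 was left out (highest adjusted p 0.161 and 0.183) and without the block (0.517 and 0.523), and stood at 0.25 and 0.30 once the ratio of 3 prime to 5 prime signal entered the fit.

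Of 19 further specific and gelatinase granule genes 3 rose and 2 fell, and 14 did not pass the threshold (5 of 19 called, against 3.68% of genes or 2.48% of probe sets), at a median change of 0.06. Those that rose were Lcn2, which binds bacterial siderophores (1.07, SE 0.12, adjusted p = 0.00376), Adam8, a membrane metalloprotease of leukocytes (1.03, SE 0.10, adjusted p = 0.0019), and Itgb2, the beta subunit of the leukocyte integrins (0.67, SE 0.14, adjusted p = 0.0450). Adam8 read 95.8, 111, 91.1, 158 and 33.6 in the controls and 215, 223, 213, 249 and 70.6 with the shRNA. Here pair 5 was the lowest in both groups. Olfm4, a marker of a subset of neutrophils, changed by -0.86 (SE 0.16, adjusted p = 0.0295), from 37.5 to 82.2 in the controls to 19.5 to 43.0 with the shRNA, and Slpi, given above, also fell.

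Lcn2 and Adam8 passed with each pair left out, though not without the block (adjusted p = 0.432 and 0.299). With the ratio of 3 prime to 5 prime signal in the fit they stood at 0.70 and 1.23 and did not pass (adjusted p = 0.628 and 0.190 by limma). Olfm4 lost the call without pair 2 or pair 4 (up to 0.130), without the block (0.106) or after quantile normalization (0.0595), and Itgb2 without pair 1, 2, 3 or 4 (up to 0.187) or the block (0.233). Some genes of the list, named after their values were seen, were dim: Mmp9, the gelatinase that names its granule, read 5.41 to 7.83, and the oxidase subunit Cybb 4.30 to 6.06. Not all were, since haptoglobin (Hp) read 374 to 1219 and Pglyrp1, a peptidoglycan-binding protein, 1022 to 1929. Neither changed past the threshold (-0.01 and -0.07, adjusted p = 0.977 and 0.816), and both were highest in pair 5 and lowest in pairs 1 and 2. Signal for late granule genes outside the 10 was thus well above background for some.

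**Figure D3:**
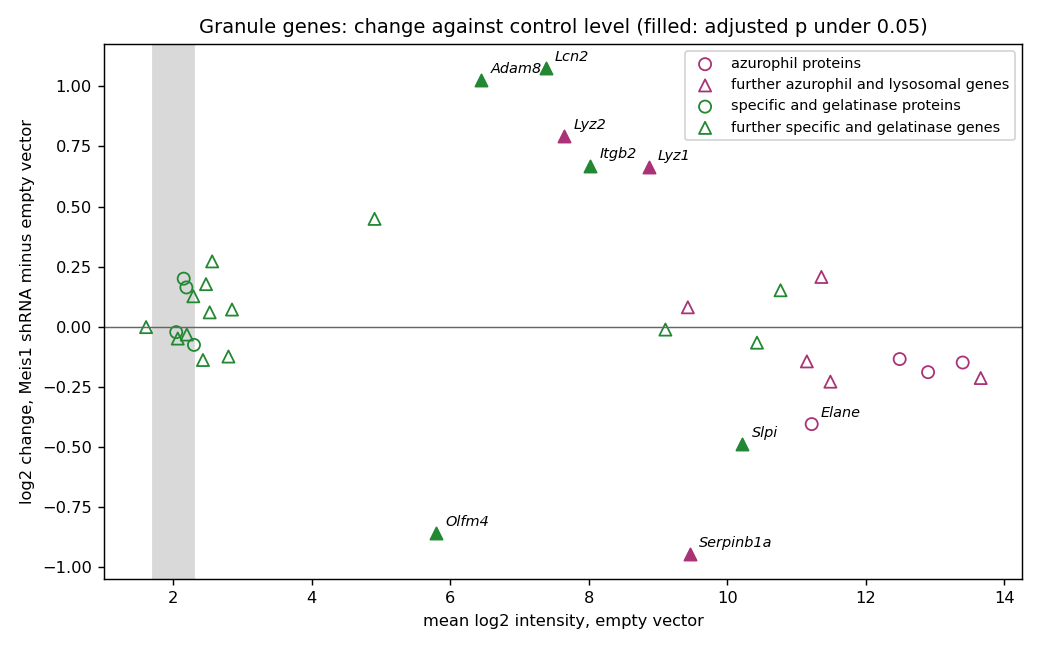
Log2 change, Meis1 shRNA minus empty vector (y axis), against mean log2 intensity with the empty vector (x axis). Purple marks azurophil genes and the further list of azurophil and lysosomal genes and protease partners, which holds the inhibitor Serpinb1a. Green marks specific and gelatinase genes. Circles are the 8 of these classes among the 10 genes, and triangles are the further lists. Filled symbols passed an adjusted p of 0.05 by limma, and the grey band spans the Trpn probe sets. The 4 azurophil circles lie between -0.40 and -0.13 at high levels, and the 4 green circles lie in or at the band.

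Among 7 measured neutrophil genes of the cytosol and surface 1 rose, 0 fell and 6 did not pass, against 2.48% of all probe sets called. The gene that rose was Anxa1, an annexin that limits neutrophil recruitment (1.06, SE 0.12, adjusted p = 0.00326 by limma). Among 11 measured regulators of granule genes, Cebpd, a C/EBP factor, rose by 0.61 (SE 0.11, adjusted p = 0.0218 by limma). Runx1 fell (-0.81, SE 0.12, adjusted p = 0.0112). The other 9 were not past the threshold, which 2.48% of all probe sets passed, and the median of the list was 0.12. An unadjusted p under 0.05 by limma was found for 8 of the 11, in both directions, against 14.8% of all probe sets. The other factors named above for the azurophil genes are given here after their values were seen. Spi1, which encodes PU.1, was higher by 0.33 and Cebpa by 0.26, and Myb changed by -0.20. Their adjusted p by limma was 0.175, 0.302 and 0.303. The part of any of these factors in the azurophil changes was not tested. Cebpd lost the call when pair 1, 2 or 4 was left out (adjusted p up to 0.0909), and Runx1 without pair 2 or 4 (up to 0.0646) or the block (0.127). Runx1 was dim, at 19.2 to 45.3 in the controls and 13.3 to 26.2 with the shRNA.

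Some regulators, named after their values were seen, were low in pairs 1 and 2 as the azurophil genes were. Gfi1, a repressor needed for granulocyte maturation, read 184, 191, 295, 350 and 642 in the controls and 171, 165, 352, 279 and 608 with the shRNA. It was also highest in pair 5 in both groups (adjusted p for sample number = 0.00547 by limma). Irf8, a factor of the monocyte branch, ran the other way, at 465 to 555 in pairs 1 and 2 and 254 to 384 in the rest (adjusted p = 0.0393). Cebpa and Cbfb were also lowest in pairs 1 and 2. Of the monocyte markers 1 of 13 passed between groups, against 2.48% of all probe sets, and the list median was -0.02. An unadjusted p under 0.05 by limma was found for 5, in both directions. Mpeg1 (-0.64), Ccr2 (-0.59) and F13a1 (-0.48) were lower and Cd14 (0.34) was higher, none past the threshold. These were named after their values were seen. The marker that passed was the macrophage antigen Adgre1 (0.65, SE 0.12, adjusted p = 0.0275). It lost the call without pair 1, 2, 3 or 4 (up to 0.118) and without the block (0.436). By limma 0 of 14 eosinophil, basophil and mast cell markers, 0 of 11 erythroid and megakaryocytic markers and 0 of 12 lymphoid markers passed. At an unadjusted p under 0.05 they were 3, 3 and 0, against 14.8% of all probe sets. The largest changes in these lists were -0.45 for the basophil protease Mcpt8 and -0.34 for Gata2, -0.43 for Itga2b and -0.34 for the transferrin receptor Tfrc, and 0.25 for Cd4 and 0.21 for Ebf1, with adjusted p from 0.0788 to 0.430.

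Likeness was measured as the root mean square difference of centred log2 levels over the 10 arrays, among 6717 genes with a mean log2 level above 5. The mean azurophil profile had an SD of 0.40 over arrays. Its nearest genes were Spcs3, a subunit of the signal peptidase that cleaves secretory proteins (difference 0.082), Rwdd4a (0.11) and Zfp869 (0.11). Spcs3 changed by -0.22 with the shRNA (adjusted p = 0.240 by limma). The specific and gelatinase profile was flat, with an SD of 0.084, and its nearest genes were the likewise flat Rpl19, Npepl1 and Rps3a1 (0.045 to 0.053).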

How the data were processed

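RNA of 10 samples was measured on Affymetrix mouse arrays. The deposited values are probe set intensities between 1.30 and 32400, made by the authors with RMA (background correction, quantile normalization between arrays and summary of probes), per the submitters' processing notes. Its version: not given in the sources used here. Their linear scale was read from the values. They were log2-transformed with no pseudocount, and 64 control probe sets were left out. Of the rest, 34945 had 1 gene symbol in the platform annotation, 932 several and 9160 none.

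Groups were compared with limma 3.58.1 in R 4.3.3 (lmFit and eBayes, checked on simulated data) with the pair as a fixed block, over all 45037 probe sets, two-sided, Benjamini-Hochberg threshold 0.05. Samples were paired by the number in their labels, which do not state a pairing. Deviations of partners from their group means had correlations of 0.310 to 0.600 over 11215 brighter probe sets. Correlations of samples with unlike numbers are not given for comparison. The fit with a random block put the consensus correlation within pairs at 0.0801. The sample number was tested by limma's moderated F. A gene of a further list is its probe set with the highest mean. RMA compresses large differences, and the number of arrays limits precision. Genes named were all 10 members, the members of each further list past the threshold (or the 2 with the largest change where none passed), Meis1 and the nearest profiles; others are said to be chosen after their values were seen. Members and lists were chosen with earlier results of these data known. A list gene with no value here was not analysed.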

Additional observations from a re-analysis of the deposited data

Results flagged for a closer look

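Chil3 in pair 5 stood far from the other samples of its group in both groups. On the log2 scale the gap between the array of pair 5 and the next highest was 0.941 of the whole range in the controls and 0.974 with the shRNA, above Dixon's critical value of 0.71 for 5 samples. Of 20 groups examined (10 genes in each treatment) these 2 were marked, and chance marks about 1 in 20. Other genes that were highest in pair 5 are given with Chil3 above, and their part was not tested.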

How the results depend on the processing

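Over 15 alternatives, 1 of them added after seeing the data, Elane stayed between -0.46 and -0.39, and over the 14 that give it the mean azurophil change stayed between -0.26 and -0.20. The count of probe sets past the threshold, 1116 with the block, was 816 with no replicate block, 1021 with a random block, 359 to 1674 with a pair left out, 2309 with trend and robust eBayes, 2040 with dim probe sets left out, 669 when adjusted over genes and 0 with the replicate block and the 3 prime to 5 prime ratio together. In that last fit Meis1 was at -0.98 (adjusted p = 0.246), the specific and gelatinase mean at -0.065 and the difference of the classes at -0.14; the cause was not tested. Of the 10 genes, 1 (Elane) passed with median centring, array weights, log2(value + 16), dim probe sets left out or adjustment over genes, 3 with trend and robust eBayes, and 0 with any pair left out, without the block or with a random block. Signs of Camp, Ngp, Mmp8, Fcnb and Chil3 turned in 1 to 4 of 14 alternatives, with no call. Probe sets with a sample number effect, 339, were 122 to 281 with a pair left out, 1243 with trend and robust eBayes, 690 with dim probe sets left out and 102 with the ratio; of the 10 genes 3 became 1 to 3 with a pair left out and 5 with trend and robust eBayes or log2(value + 16). The mean over probe sets of a gene equals the main value, since each gene has 1. No detection calls were used, so signal near background limits what the specific granule genes can show.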
